A study of Mus musculus with 12 samples.

Results

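The genes described here are 8 regulators of the G1 phase of the cell cycle, the interval in which a cell commits to a new round of DNA replication. They are the D cyclin genes Ccnd1 (ENSMUSG00000070348), Ccnd2 (ENSMUSG00000000184) and Ccnd3 (ENSMUSG00000034165) and the transcription factor gene Myc (ENSMUSG00000022346). The others are inhibitors of cyclin-dependent kinases (CDKs): Cdkn1a (ENSMUSG00000023067), Cdkn1b (ENSMUSG00000003031), Cdkn2a (ENSMUSG00000044303) and Cdkn2b (ENSMUSG00000073802). They were taken by Ensembl gene ID from the 56748 genes of the deposited tables, and no cutoff on measured values was used. The list was, however, chosen with earlier results of these data known, so the choice was not blind. Of the 8 genes, 8 passed the expression filter that 14338 genes passed. RNA was sequenced from mouse mesenchymal stem cells isolated from adipose tissue and kept in DMEM with serum and antibiotics. The cells grew either attached as a 2D layer or as 3D spheroids, which are rounded aggregates, and each culture was sampled at 0 h and 24 h. The 4 groups, 2D at 0 h, 2D at 24 h, 3D at 0 h and 3D at 24 h, have 3 libraries each. The labels give no strain, age or donor number, do not give how old the spheroids were at 0 h, and do not state that replicates came from different cultures. The p-values therefore cover only library-to-library spread, possibly technical. The labelled cell type was not checked against marker genes, since the tables used here do not pair the other gene IDs with names.

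D cyclins are made in response to growth factors and adhesion, and they activate CDK4 and CDK6, which phosphorylate the retinoblastoma protein and release E2F factors. MYC is a short-lived growth-responsive transcription factor that activates Ccnd2 and is known to repress Cdkn1a and Cdkn2b. The CIP/KIP inhibitors p21 (Cdkn1a, a p53 target) and p27 (Cdkn1b, high in quiescent cells) bind cyclin-CDK complexes. The INK4 inhibitors p15 (Cdkn2b, induced by TGF-beta) and p16Ink4a (Cdkn2a) bind CDK4 and CDK6 and keep D cyclins away. Cdkn2a also encodes p19Arf from a separate first exon, and both of its products accumulate in cultured rodent cells.

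Promoter sequences are shown for Cdkn1a, whose RefSeq annotation has separate start sites and whose estimated transcript length moved between groups, and for Cdkn2b, which rose over 24 h in both cultures. Each run is the 250 bases before a RefSeq start site, from the GRCm38.p6 table, on the gene's strand. The deposited tables use GRCm39, so these coordinates belong to the sequences only. The Cdkn1a windows lie on the plus strand at chr17:29090729-29090978 and chr17:29093519-29093768, with start sites 2790 bases apart. The Cdkn2b window lies on the minus strand at chr4:89311033-89311282. Capitals mark matches to the motifs named after the sequences.
Cdkn1a outer start: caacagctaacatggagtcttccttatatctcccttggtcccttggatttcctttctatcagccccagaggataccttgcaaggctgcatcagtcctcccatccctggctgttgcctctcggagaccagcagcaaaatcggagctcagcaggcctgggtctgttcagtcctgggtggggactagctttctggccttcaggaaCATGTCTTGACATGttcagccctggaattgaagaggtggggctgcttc
Cdkn1a inner start: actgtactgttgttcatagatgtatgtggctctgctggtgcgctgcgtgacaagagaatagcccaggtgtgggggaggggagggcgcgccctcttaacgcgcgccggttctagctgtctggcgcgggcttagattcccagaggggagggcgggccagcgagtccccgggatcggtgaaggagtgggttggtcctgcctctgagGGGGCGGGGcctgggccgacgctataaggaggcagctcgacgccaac
Cdkn2b start: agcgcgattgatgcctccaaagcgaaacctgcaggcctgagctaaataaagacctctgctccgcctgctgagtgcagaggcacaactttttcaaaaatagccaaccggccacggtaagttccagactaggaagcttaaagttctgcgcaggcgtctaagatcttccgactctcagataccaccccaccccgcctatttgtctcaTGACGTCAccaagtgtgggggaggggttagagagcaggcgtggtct
The outer Cdkn1a window holds 2 copies of CATG separated by any 6 bases, the core of a p53 site, starting 48 bases before the start site. This pattern, which reads the same on both strands, occurs in 0.49% of 32851 such windows. The inner Cdkn1a window holds the GC box GGGGCGGGG, 47 bases before its start, which on either strand occurs in 10.4% of windows. The Cdkn2b window holds the cAMP response element TGACGTCA, 46 bases before its start, which occurs in 1.55% of windows. The motifs do not overlap each other, and the letters of the E-box (CACGTG), the forkhead site (TGTTTAC) and E2F sites (TTTGGCGC and TTTCGCGC) do not occur in these 3 windows. A match describes the letters and is not a site shown to be used. Of the 8 genes, 5 had such windows in the table.

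Library totals ran from 10182590 to 17109609 expected counts, and 17080 to 20053 genes had counts above 0. Counts behind single values were between 4096 and 14709 for Ccnd2 and between 14 and 63 for Cdkn2a, so Cdkn2a carries the widest error. Expected counts were not whole (tolerance 0.001) in 12 of 12 libraries for Ccnd1, and in 11 of 12 for Ccnd2 and for Ccnd3. They were not whole in 1 library for Cdkn1a and were whole throughout for Myc, Cdkn1b, Cdkn2a and Cdkn2b. The D cyclin values may therefore include reads shared with other genes or pseudogenes, which was not examined. In bulk RNA, fewer cells that express a gene and less of its RNA per cell cannot be told apart.

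The genes spanned a wide range of abundance in TPM, transcript counts scaled by gene length and library size. Different genes were set against each other in TPM, apart from a ratio of Ccnd2 to Cdkn1a also given from counts. Ccnd2 and Cdkn1a were the most abundant in all 4 groups. In attached cells at 0 h, Ccnd2 stood at 1201 ± 68.8 TPM and Cdkn1a at 733 ± 38.8 TPM (SD, n = 3), ranks 102 and 223 of all genes. Ccnd3 followed at 166 ± 25.5 TPM and Myc at 134 ± 10.7 TPM, and the libraries of these neighbours overlapped. Cdkn2b at 28.9 ± 4.43 TPM and Ccnd1 at 21.1 ± 9.94 TPM overlapped too. Cdkn2a at 3.10 ± 0.869 TPM and Cdkn1b at 1.38 ± 0.592 TPM were the lowest, in that order and without overlap.

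**Figure D1:**
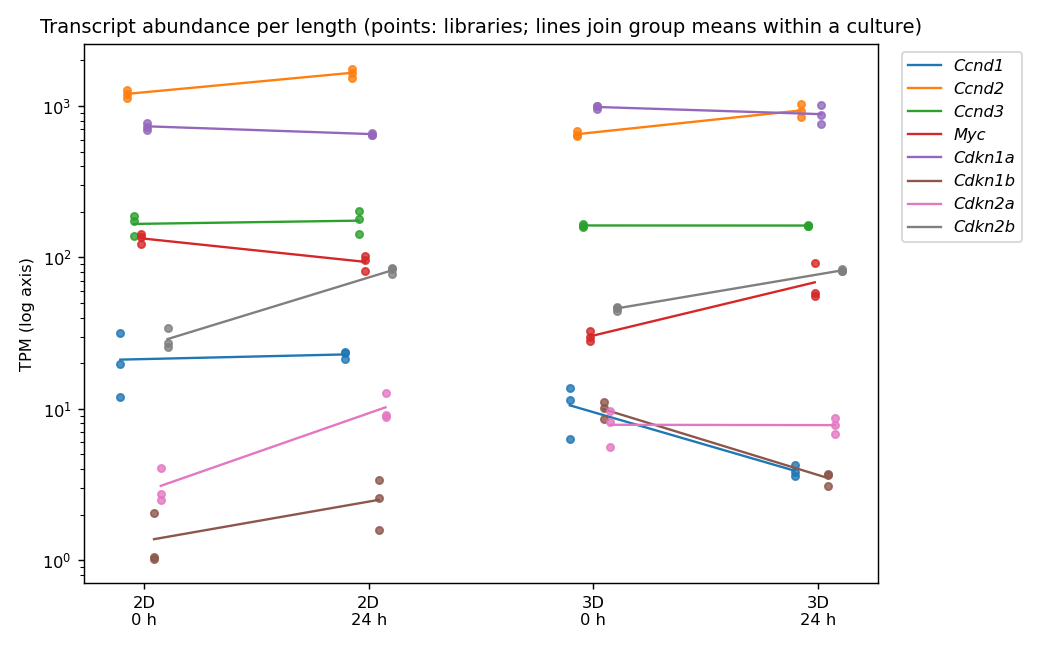
Abundance of the 8 genes in TPM on a log axis, by group, with each library as a point and lines joining the group means within a culture. Ccnd2 and Cdkn1a lie at the top in every group and change places in spheroids at 0 h, where Cdkn1a lies between 952 and 1006 TPM and Ccnd2 between 630 and 682 TPM.

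The order of abundance differed between the groups. In spheroids at 0 h Cdkn1a, at 984 ± 28.9 TPM, lay above Ccnd2, at 650 ± 28.2 TPM (SD, n = 3), with no overlap of libraries. Myc stood there at 30.1 ± 2.37 TPM, below Cdkn2b at 46.0 ± 1.46 TPM. The lowest places were shared by Ccnd1, Cdkn1b and Cdkn2a, at 10.5 ± 3.80, 9.94 ± 1.29 and 7.84 ± 2.08 TPM, which overlapped. In attached cells at 24 h, Ccnd2 reached 1655 ± 114 TPM, rank 67 of all genes, and Myc (93.3 ± 11.3 TPM) overlapped with Cdkn2b (82.2 ± 4.53 TPM). In spheroids at 24 h, Ccnd2 and Cdkn1a overlapped at 934 ± 90.7 and 882 ± 129 TPM. Ccnd1 stood at 3.90 ± 0.331 TPM and Cdkn1b at 3.48 ± 0.325 TPM at the bottom of that order, also overlapping.

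The first question was how spheroids differed from attached cells at 0 h. At that time 7 of the 8 genes differed: Ccnd1, Ccnd2 and Myc were lower in 3D and all 4 inhibitor genes were higher (edgeR quasi-likelihood test, adjusted p under 0.05). Over all genes tested, 45.8% were called in this comparison, 23.1% higher and 22.7% lower. The changes of 4 of the 7 were at least 2-fold, and the median absolute log2 fold change of the 8 genes was 1.10, beside 0.50 over all genes tested. The same comparison at 24 h called 3 of the 8, Ccnd1, Ccnd2 and Myc, all lower in 3D, where 42.5% of all genes were called, 19.6% higher and 22.8% lower. The inhibitor genes were not called at 24 h. The median absolute log2 fold change was 0.52 for the 8 genes and 0.46 over all genes, so at 24 h the share called and the size of the changes were near the background.

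Over 24 h in 2D, 4 of the 8 were called, against 34.4% of all genes (17.4% higher and 17% lower): Ccnd2, Cdkn2a and Cdkn2b rose and Myc fell. Over 24 h in 3D, 6 of the 8 were called, against 48.5% of all genes (23.8% higher and 24.7% lower): Ccnd2, Myc and Cdkn2b rose, and Ccnd1, Cdkn1a and Cdkn1b fell. The comparisons share libraries: those of 2D at 0 h enter both the culture comparison at 0 h and the time comparison in 2D, and likewise for the other groups. Ccnd3 was not called in any of the 4.

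**Figure D2:**
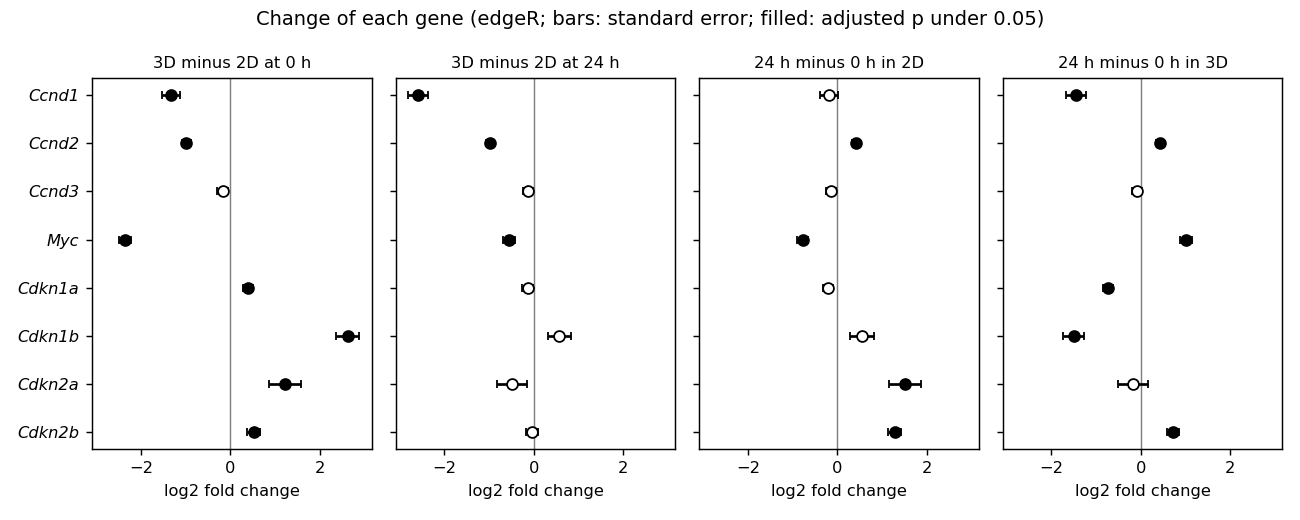
Log2 fold changes of the 8 genes in the 4 comparisons of 2 groups, from edgeR, with standard errors as bars and filled points for adjusted p under 0.05. At 0 h the points of Ccnd1, Ccnd2 and Myc lie left of 0 and those of the 4 inhibitor genes right of it, and over time Ccnd2 and Cdkn2b lie right of 0 in both cultures.

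Among the D cyclins, Ccnd1, the form best known for its response to adhesion and growth factors, was lower in spheroids at both times. Its TMM-scaled CPM (counts relative to library size after edgeR's scaling) was 44.6, 28.8 and 31.2 in attached cells at 0 h and 17.0, 13.5 and 11.3 in spheroids at 0 h. At 24 h it was 35.8, 26.4 and 29.2 in 2D and 4.36, 6.44 and 4.56 in 3D. Every 3D library lay below every 2D library, and the 3D libraries at 24 h lay below those at 0 h. The log2 fold change of 3D over 2D was -1.33 ± 0.21 (SE) at 0 h (edgeR adjusted p = 5.2e-05) and -2.58 ± 0.22 at 24 h (edgeR adjusted p = 5.6e-08). At 24 h, 96.0% of all genes tested had a smaller absolute change. Within 3D the fall over 24 h was 2.73-fold (log2 fold change -1.45 ± 0.22, edgeR adjusted p = 4.9e-05). In 2D the difference over time was -0.19 ± 0.20 and was not called, with a 95% interval of -0.61 to 0.22.

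Ccnd2 supplied most of the D cyclin RNA and was about the same distance lower in spheroids at either time. It stood at 800, 818 and 806 CPM in attached cells at 0 h, and at 399, 425 and 402 CPM in spheroids at 0 h. After 24 h it stood at 1224, 970 and 1036 CPM in 2D, and at 565, 565 and 512 CPM in 3D. The 4 groups did not overlap: the order from highest was 2D at 24 h, 2D at 0 h, 3D at 24 h and 3D at 0 h. The log2 fold change of 3D over 2D was -0.98 ± 0.096 at 0 h (edgeR adjusted p = 2.9e-07) and -0.98 ± 0.095 at 24 h (edgeR adjusted p = 2.7e-07). Over 24 h Ccnd2 rose 1.33-fold in 2D (edgeR adjusted p = 0.0032) and 1.34-fold in 3D (edgeR adjusted p = 0.0015).

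Ccnd3, the third form, was at 209 ± 28.9 CPM in attached cells at 0 h, 190 ± 18.3 CPM in attached cells at 24 h, 185 ± 11 CPM in spheroids at 0 h and 173 ± 9.17 CPM in spheroids at 24 h (SD, n = 3). Its libraries overlapped in every comparison. The 95% interval of the log2 fold change of 3D over 2D was -0.41 to 0.07 at 0 h and -0.37 to 0.11 at 24 h. The difference at 0 h was called without replicate 2 of 2D at 0 h, the lowest of that group at 176 CPM (log2 fold change -0.29, edgeR adjusted p = 0.040).

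The D cyclins together summed to 1388 ± 76.1 TPM in attached cells at 0 h, 1852 ± 84.3 TPM in attached cells at 24 h, 823 ± 28.1 TPM in spheroids at 0 h and 1101 ± 91.3 TPM in spheroids at 24 h (SD, n = 3). Ccnd2 held 86.5% ± 2.18 of that sum in attached cells at 0 h, 89.3% ± 2.09 in attached cells at 24 h, 79.0% ± 0.754 in spheroids at 0 h and 84.8% ± 1.20 in spheroids at 24 h. With Ccnd2 lower and Ccnd3 near level, Ccnd3 held 19.7% ± 0.266 in spheroids at 0 h, against 12% ± 1.53 in attached cells at 0 h. Ccnd1 held 1.53% ± 0.764 in attached cells at 0 h and 0.358% ± 0.0598 in spheroids at 24 h. These shares describe the libraries and were not tested.

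**Figure D3:**
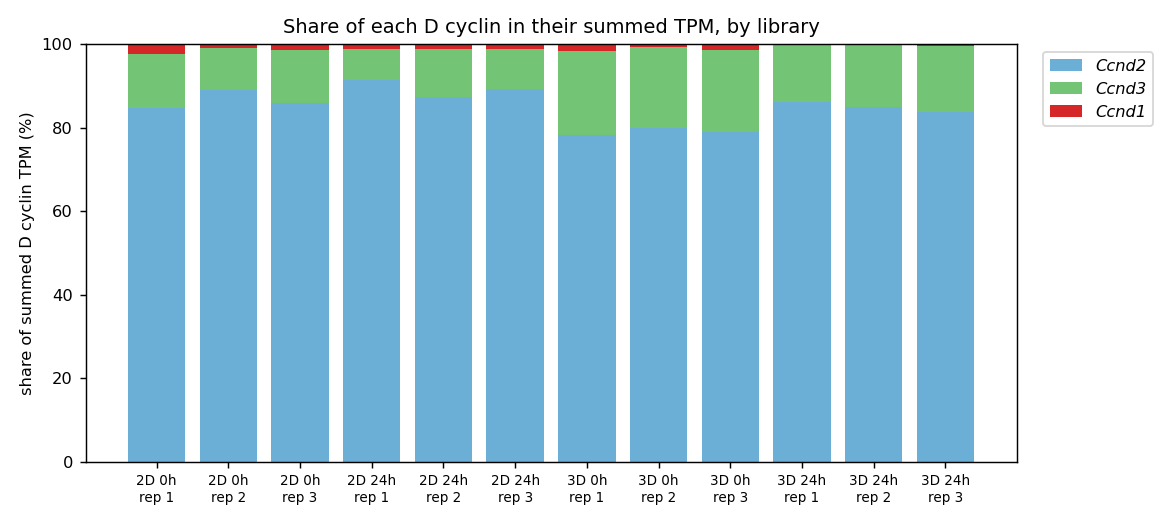
Share of each D cyclin in the summed D cyclin TPM, as stacked bars from 0 to 100% for each of the 12 libraries. Ccnd2 fills most of every bar, the Ccnd3 segment is tallest in the 3 libraries of 3D at 0 h, and Ccnd1 is thinnest in spheroids at 24 h.

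Myc had the largest change between cultures among the D cyclins and Myc at 0 h. It stood at 180, 195 and 188 CPM in attached cells at 0 h and at 38.3, 38.7 and 33.7 CPM in spheroids at 0 h. At 24 h it stood at 107, 108 and 114 CPM in 2D and at 90.7, 71.0 and 61.3 CPM in 3D. The groups did not overlap, but the cultures lay closer together at 24 h, with replicate 1 of 3D at 24 h nearest to 2D. Myc was 5.09-fold lower in spheroids at 0 h (log2 fold change -2.35 ± 0.13, SE, edgeR adjusted p = 4e-10), and 95.5% of all genes tested had a smaller absolute change. At 24 h it was 1.47-fold lower (log2 fold change -0.56 ± 0.13, edgeR adjusted p = 0.0018).

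Over 24 h Myc moved in opposite directions in the cultures. It fell 1.71-fold in 2D (log2 fold change -0.78 ± 0.13, edgeR adjusted p = 0.00022) and rose 2.02-fold in 3D (log2 fold change 1.01 ± 0.13, edgeR adjusted p = 6.5e-06). Ccnd2, which MYC is known to activate, was lower in spheroids at both times, as Myc was, and rose over 24 h in both cultures. A link between Myc and the other genes was not tested.

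**Figure D4:**
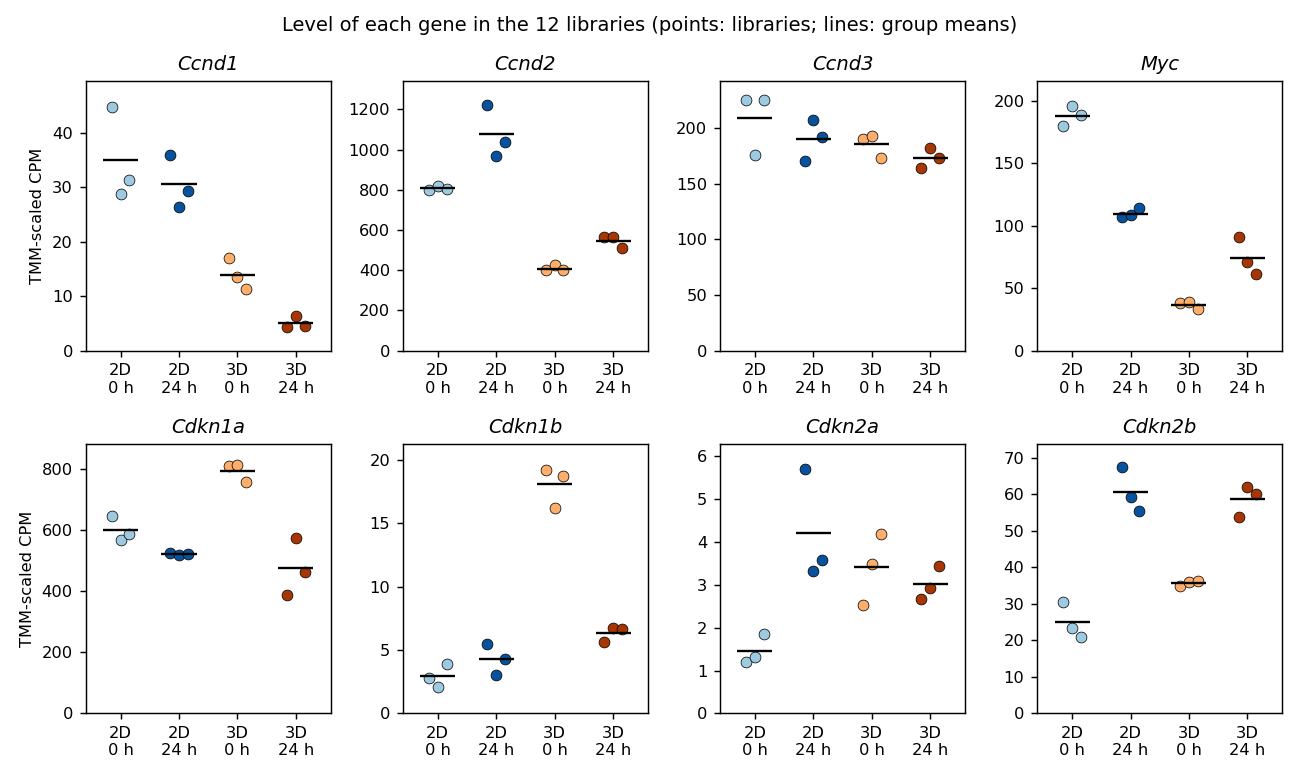
TMM-scaled CPM of each gene in the 12 libraries, on linear axes from 0, with libraries as points and group means as lines. Cdkn1b stands apart in spheroids at 0 h at 16.2 to 19.2 CPM, Myc is lowest there, and Cdkn2b is near the same level in both cultures at 24 h.

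Of the CIP/KIP inhibitors, Cdkn1b (p27) rose most with culture. Its CPM was 2.75, 2.12 and 3.86 in attached cells at 0 h and 19.2, 16.2 and 18.7 in spheroids at 0 h. At 24 h it was 5.44, 3.06 and 4.30 in 2D and 5.66, 6.77 and 6.65 in 3D. The 3D libraries at 0 h lay far above all others, and those at 24 h lay just above 2D. At 0 h Cdkn1b was 6.16-fold higher in 3D (log2 fold change 2.62 ± 0.26, SE, edgeR adjusted p = 3.1e-07), and 96.6% of all genes tested had a smaller absolute change. The difference at 24 h, 0.57 ± 0.25, was not called (edgeR adjusted p = 0.079), although the libraries did not overlap. Over 24 h Cdkn1b fell 2.84-fold in 3D (log2 fold change -1.51 ± 0.24, edgeR adjusted p = 6.1e-05), while in 2D the difference of 0.55 ± 0.27 was not called.

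Both uncalled Cdkn1b differences depended on the setting. That at 24 h was called with library totals in place of TMM (log2 fold change 0.70, edgeR adjusted p = 0.032), without replicate 3 of 2D at 0 h (0.62, edgeR adjusted p = 0.039) and without replicate 1 of 2D at 24 h (0.82, edgeR adjusted p = 0.027). That over time in 2D was called without replicate 3 of 2D at 0 h, at 0.84 (edgeR adjusted p = 0.035). Cdkn1b had 29 to 61 expected counts in each 2D library.

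Cdkn1a (p21), the most abundant inhibitor, was higher in spheroids at 0 h. It stood at 646, 569 and 589 CPM in attached cells at 0 h and at 810, 812 and 757 CPM in spheroids at 0 h. At 24 h it stood at 526, 520 and 522 CPM in 2D and at 388, 575 and 462 CPM in 3D, where the libraries of 3D lay on both sides of 2D. The log2 fold change of 3D over 2D was 0.40 ± 0.12 at 0 h (edgeR adjusted p = 0.0095) and -0.14 ± 0.12 at 24 h, which was not called (edgeR adjusted p = 0.37). By counts it fell 1.67-fold over 24 h in 3D (log2 fold change -0.74 ± 0.12, edgeR adjusted p = 5.6e-05). In 2D all libraries at 24 h lay below those at 0 h, but the difference of -0.20 ± 0.12 was not called (edgeR adjusted p = 0.19).

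For Cdkn1a the deposited TPM values gave another picture at 24 h. TPM was 774, 697 and 728 in attached cells at 0 h, 663, 644 and 647 in attached cells at 24 h, 1006, 995 and 952 in spheroids at 0 h, and 761, 1017 and 869 in spheroids at 24 h. On that scale the libraries of 3D lay above those of 2D at both times. With limma on log2(TPM + 1), Cdkn1a was higher in spheroids at 24 h by 0.43 (limma adjusted p = 0.0025), and its difference over 24 h in 3D, -0.17, was not called (limma adjusted p = 0.17). By counts the sign at 24 h was the other way, and without replicate 2 of 3D at 24 h, its highest library, Cdkn1a was called lower in 3D (log2 fold change -0.30, edgeR adjusted p = 0.039). At 0 h the scales differed little, with 0.42 by TPM (limma adjusted p = 0.0026).

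What links the scales is the effective length that RSEM assigned to the gene in each library, which is an average over its transcripts weighted by their estimated shares. It was recovered as counts over TPM, relative to the median gene of the library. For Cdkn1a it was 0.391, 0.399 and 0.386 in spheroids at 24 h, and between 0.514 and 0.603 in the other 9 libraries. The mean in spheroids at 24 h was 1.41-fold shorter than in the others, and 0.618% of 9385 genes with at least 50 counts in every library had as large a fall there. Of the same genes, 2.47% had all lengths in spheroids at 24 h below those of the other 9 libraries. Counts do not tell which RefSeq start, outer or inner, the reads came from.

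Ccnd1 lengths varied between replicates instead of between groups. Its relative length was 1.53 in replicate 2 of 2D at 0 h and 1.47 in replicate 2 of 3D at 0 h, and between 0.700 and 1.18 in the other 10 libraries. The highest was 2.19 times the lowest, a ratio larger than in 96.2% of genes, where the median ratio was 1.22. TPM of Ccnd1 in attached cells at 0 h therefore ran from 11.9 to 31.7, a wider spread than its CPM. By limma on log2(TPM + 1), Ccnd1 was lower in spheroids at 0 h by -0.90 (limma adjusted p = 0.027) and at 24 h by -2.28 (limma adjusted p = 2.9e-05). The other 6 genes had ratios of 1.08 to 1.48.

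**Figure D5:**
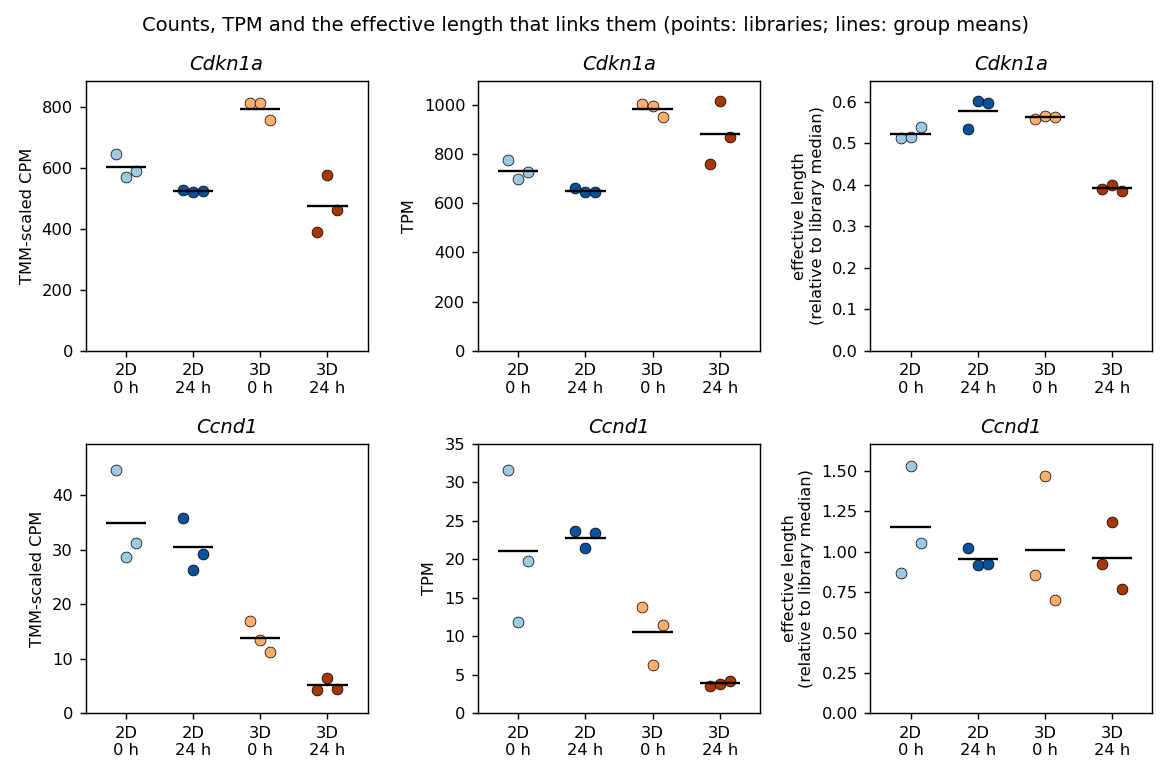
TMM-scaled CPM, TPM and relative effective length of Cdkn1a (top) and Ccnd1 (bottom) in the 12 libraries, with points for libraries and lines for group means. The 3 lengths of Cdkn1a in spheroids at 24 h, 0.386 to 0.399, lie below the others, and 2 libraries of Ccnd1 stand above 1.4.

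The INK4 genes, which are neighbours on chromosome 4, both rose over 24 h in 2D. Cdkn2b (p15) stood at 30.5, 23.4 and 20.9 CPM in attached cells at 0 h, and at 67.3, 59.1 and 55.3 CPM in attached cells at 24 h. In 3D it stood at 35.0, 36.0 and 36.2 CPM at 0 h, and at 53.8, 62.1 and 60.2 CPM at 24 h. The 24 h libraries lay above the 0 h libraries in both cultures. Cdkn2b rose 2.43-fold in 2D (log2 fold change 1.28 ± 0.14, SE, edgeR adjusted p = 5e-06) and 1.64-fold in 3D (log2 fold change 0.71 ± 0.14, edgeR adjusted p = 0.00041). It was 1.44-fold higher in spheroids at 0 h (edgeR adjusted p = 0.0060). At 24 h the cultures overlapped, and the 95% interval of the log2 fold change was -0.33 to 0.24.

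Cdkn2a, counted over its p16Ink4a and p19Arf transcripts together, had 14 to 27 expected counts in attached cells at 0 h and 26 to 63 in the other libraries. Its CPM was 1.20, 1.31 and 1.86 in attached cells at 0 h and 5.72, 3.33 and 3.59 in attached cells at 24 h. In 3D it was 2.53, 3.50 and 4.20 at 0 h and 2.67, 2.94 and 3.44 at 24 h. The libraries of 2D at 0 h lay below all 9 others, which overlapped. Cdkn2a rose 2.85-fold over 24 h in 2D (log2 fold change 1.51 ± 0.36, edgeR adjusted p = 0.0038) and was 2.32-fold higher in spheroids at 0 h (log2 fold change 1.21 ± 0.36, edgeR adjusted p = 0.010). In 3D the difference over time, -0.18 ± 0.34, was not called, and its 95% interval ran from -0.90 to 0.53.

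Effective length, averaged over the libraries, moved with fold changes over 24 h in 2D across all genes. Spearman's rho across genes was 0.36, and genes are not independent replicates. This length is an estimate from counts and TPM, not the annotated gene length. Cdkn2a lies in the first of 10 classes of effective length, the shortest, whose median log2 fold change in 2D was -0.41. Cdkn2b lies in the third class, with -0.14, while both genes rose. Ccnd2, in the second class with a median of -0.24, also rose. Myc fell, and genes of its class had a median of 0.02. Whether effective length contributed to the changes of these genes was not tested.

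The last question was whether the difference between cultures changed between 0 h and 24 h. It did for 6 of the 8 genes, against 39.1% of all genes tested, 18.7% higher and 20.5% lower (edgeR test of the difference between the log2 fold changes). For Myc the change of 3D over 2D was higher at 24 h than at 0 h by 1.79 ± 0.18 (SE, edgeR adjusted p = 6.7e-07). It was lower at 24 h for Ccnd1 by -1.26 ± 0.30 (edgeR adjusted p = 0.0029), for Cdkn1b by -2.05 ± 0.36 (edgeR adjusted p = 0.00021) and for Cdkn2a by -1.70 ± 0.49 (edgeR adjusted p = 0.011). So the gap between cultures at 24 h was smaller than at 0 h for Myc and Cdkn1b and larger for Ccnd1.

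Smaller differences were found for Cdkn1a, at -0.54 ± 0.16 (edgeR adjusted p = 0.015), and Cdkn2b, at -0.57 ± 0.20 (edgeR adjusted p = 0.029). The Cdkn1a call was lost by TPM, where the difference was 0.0023 (limma adjusted p = 0.99). It was also lost without replicate 1 (-0.49) or 2 (-0.49) of 3D at 0 h or replicate 3 of 3D at 24 h (-0.48). The Cdkn2b call was lost without any 1 of 8 libraries, with values of -0.56 to -0.45 and edgeR adjusted p up to 0.080. These were each library of 3D at 0 h, replicates 2 and 3 of 2D at 0 h, replicate 1 of 2D at 24 h, and replicates 1 and 3 of 3D at 24 h. For Ccnd2 the difference was 0.01 ± 0.13, with a 95% interval of -0.28 to 0.29, and for Ccnd3 it was 0.04 ± 0.16, with an interval of -0.30 to 0.38.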

How the data were processed

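RNA was sequenced from 12 libraries of mouse adipose-derived mesenchymal stem cells, 3 in each of 4 groups. Per the submitters' processing notes, reads were handled with FastQC 0.11.9, STAR and RSEM on GRCm39. STAR and RSEM versions, the annotation and the strand setting were not found in the labels, so reads of overlapping antisense genes may be included. The authors deposited gene-level expected counts, estimates in which shared reads are split between genes, and log2(TPM + 1) values. Per the file headers, columns name day 0 and day 1, read as 0 h and 24 h.

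Expected counts were rounded and fitted in R 4.3.3 with edgeR 4.0.16 (filterByExpr, minimum count 10, TMM, quasi-likelihood, 1 term per group, all 12 libraries, 8 residual degrees of freedom). Benjamini-Hochberg adjustment covered all 14338 genes tested. Standard errors are the absolute log2 fold change over the square root of F. Alternatives used limma 3.58.1, DESeq2 1.42.0, other scalings and filters, a replicate block and fits without each library. The code was also run on simulated counts with a small set of changed genes and the same dispersion for every gene. These settings differ from the data, so that run does not measure error rates here.

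The genes, lists and motifs were chosen with earlier results of these data known. All 8 genes were named by rule in every comparison. Planned lists of other G1 genes, MYC targets, division markers and cell type markers were fixed by symbol. They were not tested, because the RefSeq annotation used here held no Ensembl gene IDs to pair with their symbols. Expected counts carry no molecular identifiers, so counting error is only part of the spread.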

Additional observations from a re-analysis of the deposited data

Results flagged for a closer look

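The gap between spheroids and attached cells was not the same at both times for 6 genes, by the test of the difference given in the report. On the log2 scale, 24 h minus 0 h, the values were 1.79 for Myc (edgeR adjusted p = 6.7e-07), -2.05 for Cdkn1b (edgeR adjusted p = 0.00021), -1.26 for Ccnd1 (edgeR adjusted p = 0.0029) and -1.70 for Cdkn2a (edgeR adjusted p = 0.011). They were -0.54 for Cdkn1a (edgeR adjusted p = 0.015) and -0.57 for Cdkn2b (edgeR adjusted p = 0.029), calls that several alternatives ended. Groups of 3 libraries are too small for a search for single outlying libraries.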

How the results depend on the processing

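Of 40 comparisons of single genes, 33 kept their side of the threshold under every alternative run. Of these, 23 were called and kept their direction, and 10 were not called, of which 6 turned sign under at least 1 alternative. The alternatives were upper-quartile scaling, library totals, DESeq2, no filter, limma on log2(TPM + 1), the groups compared alone, a replicate block, and the omission of each library. Cdkn1a took the other sign by TPM at 24 h (0.43), where the difference by counts was not called. In the change between the times its TPM value was 0.0023 and was not called. The effective length of Cdkn1a also differed in spheroids at 24 h. With the replicate block, 7, 3, 4, 6 and 6 genes were called, as without it, so it changed no call. Samples sharing a number did not deviate together (correlations -0.23 to 0.05), and not every sample correlated best with its own number, so the numbers were not taken as pairs. Without single libraries the counts were 7 to 8 (3D against 2D at 0 h), 3 to 4 (at 24 h), 4 to 5 (over time in 2D), 6 (in 3D) and 4 to 6 (change between the times). With 1 effective length per gene, chosen after seeing the data, Ccnd1 held 1.65% of D cyclin TPM in attached cells at 0 h and 0.350% in spheroids at 24 h. At 0 h upper-quartile scaling moved the median 3D over 2D change of all genes from 0.02 to 0.14 and library totals to 0.12, and neither turned the direction of a called gene in any comparison. Shares from counts without length scaling differ by construction. By these, Ccnd2 held 74.75% to 80.01% in attached cells at 0 h and 65.87% to 68.59% in spheroids at 0 h. Depth limits Cdkn2a and Cdkn1b most.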

Other observations

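The ratio of Ccnd2 to Cdkn1a in TPM, a D cyclin against the most abundant inhibitor, differed between the groups. It was 1.46 to 1.74 in attached cells at 0 h, 2.39 to 2.66 in attached cells at 24 h, 0.626 to 0.686 in spheroids at 0 h and 0.914 to 1.35 in spheroids at 24 h. On this scale the groups did not overlap, but the effective length of Cdkn1a was lower in spheroids at 24 h. By CPM the ratio was 1.24 to 1.44 in attached cells at 0 h and 0.982 to 1.46 in spheroids at 24 h, which overlapped. CPM is not scaled by gene length, so the size of this ratio does not give the relative abundance of the genes. In TPM, Cdkn1a exceeded Myc by 5.08 to 6.36 times in attached cells at 0 h. In spheroids at 0 h it did so by 30.5 to 34.0 times. At 24 h these TPM ratios were 6.31 to 8.21 in 2D and 8.29 to 17.6 in 3D. The lower effective length of Cdkn1a in spheroids at 24 h raises its TPM for the same counts. The ratio of Cdkn1a to Myc was not taken by CPM, so the difference at 24 h may depend on the scale. The TPM ratio of Cdkn2b to Cdkn2a, the INK4 neighbours, ran from 4.87 to 13.7 over all 12 libraries. Within spheroids it was 4.87 to 7.93 at 0 h and 9.51 to 11.9 at 24 h, without overlap, and the groups of attached cells overlapped each other. These ratios were chosen after the values had been seen and were not tested.

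Genes with patterns like these were sought by Pearson correlation of log2 CPM over the 12 libraries, which fall into 4 groups, among 10599 genes. Correlations of at least 0.95 were reached by 91 genes for Myc, 72 for Ccnd1, 34 for Cdkn1b, 22 for Ccnd2, 6 for Cdkn2b and 4 for Cdkn1a. None reached it for Ccnd3 or Cdkn2a, where the highest values were 0.92 and 0.93. The same count was not taken for other genes, so these numbers do not show whether they are many or few. The closest gene to Cdkn2b was ENSMUSG00000027656 (r = 0.99), which the tables used here do not name.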
